A study of Mus musculus with 2 samples.

Results

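The 14-3-3 family comprises 7 mouse genes, Ywhab (beta), Ywhae (epsilon), Ywhag (gamma), Ywhah (eta), Ywhaq (theta), Ywhaz (zeta) and Sfn (sigma, stratifin). They were picked by gene symbol from the deposited tables of transcript models, and reads of every model class were kept. Of the 7 genes, 6 had reads, among 18595 genes detected over both libraries. They held 96 of 133886 models in replicate 1 and 93 of 133393 in replicate 2. The samples are tissue labelled layer of hippocampus, from mice aged 6 months, strain B6NCrl (written C57BL/6 in another label). They were read as long RNA reads in 1 group with replicates 1 and 2. The labels give no genotype and no treatment, call the mice male in a description while the field for sex holds no value, and give separate biosamples under 1 shared donor identifier. Each p-value therefore measures the difference between these 2 libraries, which may be technical, and compares no conditions.

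14-3-3 proteins are small acidic adaptors that work as dimers and bind short motifs in other proteins once a serine or threonine in the motif is phosphorylated. Binding can hold a partner in the cytoplasm, block a surface, alter an enzyme's activity or protect the phosphate. In neurons the family is known as an abundant soluble component of synapses and axons, and an early described role was as an activator of tyrosine and tryptophan hydroxylase, which gave the Ywha symbols. Stratifin is best known from skin and other epithelia.

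The coding sequences were compared first, because reads of near-identical copies could be shared between genes. GENCODE M21 on build mm10 places Ywhab on chromosome 2 (163994960 to 164018588, plus strand), Sfn on chromosome 4 (133600556 to 133602168, minus) and Ywhah on chromosome 5 (33018816 to 33027966, plus). Ywhag is also on chromosome 5 (135908409 to 135934616, minus), Ywhae on chromosome 11 (75732869 to 75765845, plus), Ywhaq on chromosome 12 (21390071 to 21417637, minus) and Ywhaz on chromosome 15 (36770770 to 36796929, minus). The stretch of 60 coding bases most alike in all 7 genes, searched within single exons, is printed below for each gene, with capitals at bases that 3 or fewer of the 7 members carry. Of its 60 positions, 35 held the same base in all 7 genes, and 20 of the 25 others were at codon position 3.

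Ywhab, chr2:164015296-164015355, plus: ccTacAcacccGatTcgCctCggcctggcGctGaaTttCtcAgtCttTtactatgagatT
Ywhae, chr11:75756938-75756997, plus: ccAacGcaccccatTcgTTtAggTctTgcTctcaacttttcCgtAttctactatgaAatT
Ywhag, chr5:135911181-135911240, minus: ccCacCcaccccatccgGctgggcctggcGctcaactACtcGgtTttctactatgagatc
Ywhah, chr5:33026953-33027012, plus: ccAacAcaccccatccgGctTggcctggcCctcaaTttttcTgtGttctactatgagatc
Ywhaq, chr12:21396321-21396380, minus: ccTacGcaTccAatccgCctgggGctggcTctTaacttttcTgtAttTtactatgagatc
Ywhaz, chr15:36775455-36775514, minus: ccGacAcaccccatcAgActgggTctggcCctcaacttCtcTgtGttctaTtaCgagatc
Sfn, chr4:133601221-133601280, minus: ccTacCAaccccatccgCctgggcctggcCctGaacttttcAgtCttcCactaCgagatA

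Even here Ywhab carried 14 and Ywhae 13 such bases, against 8 in Ywhag and 8 in Ywhah. Over whole coding sequences the closest pairs were Ywhag with Ywhah (79.0% of 738 aligned bases the same), Ywhab with Ywhaz (75.0% of 732) and Ywhaq with Ywhaz (74.0% of 735). The 6 pairs with Ywhae ranged from 59.8% with Sfn to 63.4% with Ywhab. In the Ywhab and Ywhaz pair, 134 of 183 differing bases lay at codon position 3, and 115 of 147 differing codons were synonymous.

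The coding exons fell into a few arrangements. Ywhab, Ywhaq and Ywhaz each had 5 coding exons, with introns at the same 4 places of the codon alignment and internal exons of 124, 164 and 96 bases in all 3 genes. Ywhag and Ywhah each had 2, with 87 coding bases in the first and the intron at the same place. Ywhae had 6 coding exons, and none of its 5 intron places was shared with another member. Sfn had 1 exon. The diagram of coding exons shows these groups.

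**Figure D1:**
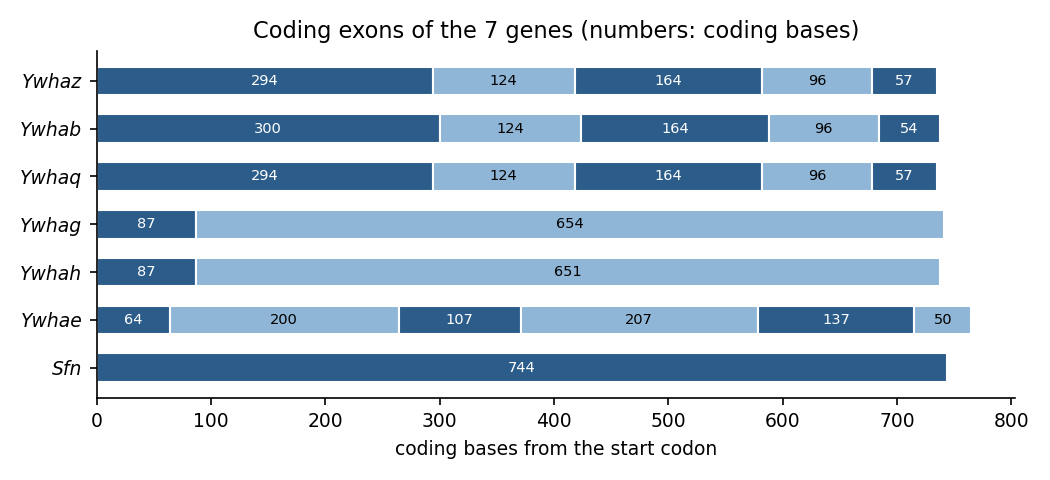
Coding exons of 1 annotated protein-coding transcript per gene, in coding bases from the start codon (stop codon left out), with shades alternating between exons and the number of bases printed in each. Ywhaz, Ywhab and Ywhaq share exons of 124, 164 and 96 bases, Ywhag and Ywhah begin with 87 bases, Ywhae has 6 exons and Sfn has 1.

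No 50-base word of one member's annotated transcripts occurred in another's, and at 25 bases the largest share was 0.162% of the words of Ywhah, found in Ywhag. Processed copies were closer than paralogs. Among annotated pseudogenes, 13 shared at least 20% of their 25-base words with a member, and 2 of the 13 had reads. Gm2423 (chromosome 13, 13232161 to 13232893, minus), which shared 92.9% of its words with members and most with Ywhaq, had 23 reads in replicate 1 and 32 in replicate 2, or 1.69% and 2.08% of the Ywhaq reads. Gm4202 (chromosome 3, 92689426 to 92690158, plus), which shared 97.2% and most with Ywhaz, had 8 and 7 reads, 0.816% and 1.08% of the Ywhaz reads. Reads of these copies are uncertain between copy and parent. No read was placed on Ywhaq-ps1, Ywhaq-ps2 or Ywhaq-ps3.

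The libraries held 1330153 and 1366252 reads, with 94.2% and 96.6% on annotated genes. Levels are given as CPM, reads scaled to a library of 1000000 reads and not divided by length, with exact Clopper-Pearson 95% intervals for counting error. Marker lists of neurons, astrocytes, oligodendrocytes, microglia and endothelial cells all had reads in both libraries. Among the lists, choroid plexus markers differed most, summing to 13989 CPM in the first library and 323 in the second, while 7 neuronal markers summed to 4422 and 5330 CPM. The part of either difference in the members' values was not tested. With the choroid plexus list left out of the totals the same 3 members as below were called. That setting changes only the totals and leaves the members' reads as they were, so it cannot show this part. Over all 11891 genes tested the median log2 ratio of replicate 1 to replicate 2 was -0.05. It was 0.17 over genes tested on single-exon reads alone and -0.11 over those tested on spliced reads.

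Together the 6 detected genes held 6930 reads in replicate 1 and 7511 in replicate 2. Their summed level was 5354 CPM ± 203 (SD, n = 2), or 0.521% and 0.550% of all reads. In bulk tissue, fewer cells of a type and less RNA per cell cannot be told apart, so these are levels of the tissue.

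Ywhah, the eta gene, was at 1302 CPM in replicate 1 (interval 1242 to 1365) and 1525 CPM in replicate 2 (1461 to 1592), a mean of 1414 ± 158 (SD, n = 2). It was the highest member in both libraries and stood 60th and 51st among all genes by CPM. Ywhae, the epsilon gene, followed at 1266 (1206 to 1328) and 1263 CPM (1204 to 1324), with the smallest relative spread of the family (1264 ± 2.43, SD, n = 2). Ywhaq, the theta gene, was at 1020.2 (967 to 1076) and 1128 CPM (1072 to 1186), and its mean was 1074 ± 76.2 (SD, n = 2). These 3 genes kept the same order in both libraries and their values did not overlap, though the counting intervals of Ywhah and Ywhae did in replicate 1. Together with Ywhab they were the 4 highest members in replicate 2, whereas Ywhaz passed Ywhab in replicate 1.

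Ywhab, the beta gene, was at 633 CPM in replicate 1 (591 to 677) and 870.3 in replicate 2 (822 to 921), a mean of 752 ± 168 (SD, n = 2). Ywhaz, the zeta gene, was at 737 (691 to 784) and 474 CPM (438 to 512), a mean of 606 ± 186 (SD, n = 2). On all models these neighbours in the order were not separated, because each was the higher of the pair in 1 library. Without single-exon models Ywhab was the higher in both libraries, at 568 and 820 CPM against 317 and 337 for Ywhaz. Ywhag, the gamma gene, was lowest of the detected members at 252 (226 to 280.3) and 237 CPM (212 to 264), a mean of 244 ± 10.4 (SD, n = 2). Its values lay below those of every other detected member in both libraries, and were 27.8 and 25.6 CPM without single-exon models. Sfn had 0 reads in each library, which by a floor of 3 reads allows up to 2.26 CPM in the first and 2.20 CPM in the second. The upper ends of its exact intervals were 2.77 and 2.70 CPM. Of 8 markers of stratified and other epithelia, Krt14, Krt19, Epcam and Cdh1 also had no read. Krt18 was at 43.6 and 2.20 CPM and Krt8 at 9.77 and 2.20 CPM. Krt5 and Trp63 each had 1 read in replicate 1 and 0 in replicate 2.

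**Figure D2:**
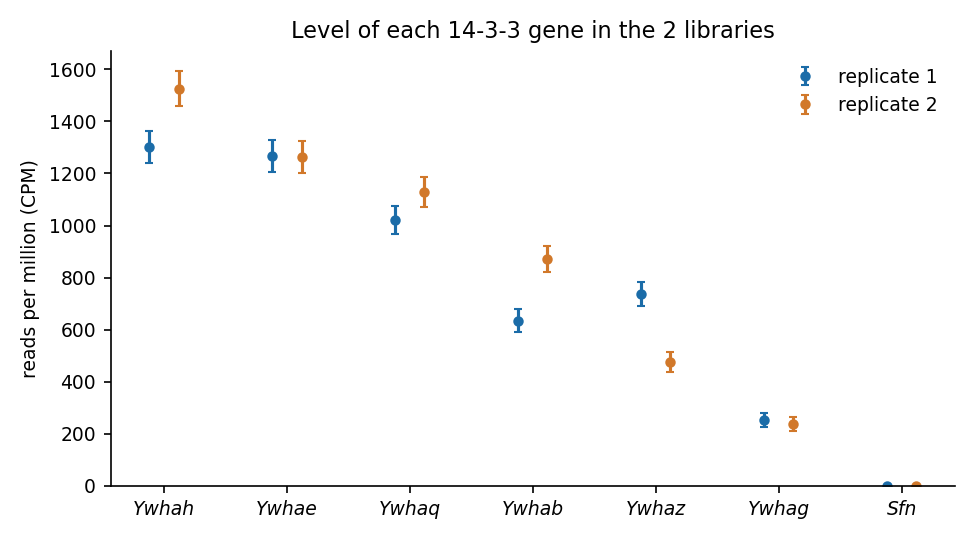
Level of each 14-3-3 gene in CPM (linear axis from 0), with 1 point per library (blue, replicate 1; orange, replicate 2) and exact 95% counting intervals as bars. Ywhah was highest in both libraries, Ywhab and Ywhaz change order between the libraries, and Sfn had no read.

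Per kilobase of read-weighted model length, a scale for comparing genes of unlike length, Ywhah (811 ± 87.5 CPM per kilobase, SD, n = 2), Ywhae (641 ± 2.84) and Ywhaq (510 ± 34.0) kept their order. Ywhaz (329 ± 109) then came before Ywhab (273 ± 52.7), again with overlapping values, and Ywhag was last at 164 ± 98.5. All models entered this scale, single-exon ones included. For Ywhag this scale rests on model lengths that differed between the libraries, 94.7 and 234 CPM per kilobase.

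The protein-coding gene outside the family with the most similar pair of values, by Euclidean distance of log2(CPM + 1) over the 2 libraries, was Gpm6a for Ywhah (distance 0.025), Chchd2 for Ywhae (0.079), Rpl37 for Ywhaq (0.016), Nell2 for Ywhab (0.051), Scn2b for Ywhaz (0.14) and Cyfip2 for Ywhag (0.0062). With 2 libraries this likeness is one of level and of the single difference between them.

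Between the libraries, 3 of the 6 tested members differed in level. Each gene's reads were set against the remaining reads of its library with Fisher's exact test, 2-sided, Benjamini-Hochberg adjusted over all 11891 genes with at least 10 reads (threshold 0.05), and 5.95% of these genes were called. The test calls smaller differences at higher counts, and the members had 324 to 2084 reads per library. Shares over genes of like depth were not computed, here or for the tests below. Ywhab and Ywhah were higher in replicate 2 (3.38% of genes) and Ywhaz in replicate 1 (2.56%). Ywhab had 842 reads in replicate 1 and 1189 in replicate 2, 1.37-fold higher in replicate 2 (log2 ratio of replicate 1 to replicate 2 -0.46, interval -0.59 to -0.33, adjusted p = 1.53e-10). Ywhah had 1732 and 2084 reads, 1.17-fold higher in replicate 2 (-0.23, -0.32 to -0.14, adjusted p = 6.56e-05). Ywhaz had 980 and 648 reads, 1.55-fold higher in replicate 1 (0.64, 0.49 to 0.78, adjusted p = 3.69e-16).

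The remaining members did not pass. Ywhaq had 1357 and 1541 reads (log2 ratio -0.14, interval -0.25 to -0.04, adjusted p = 0.0927), Ywhae 1684 and 1725 (0.00, -0.09 to 0.10) and Ywhag 335 and 324 (0.09, -0.14 to 0.31), the last 2 with adjusted p of 1 and 0.838. Fisher's test takes counting error as the only error. With the spread over all genes added, by edgeR's exact test with a common dispersion estimated by treating the 2 libraries as replicates (coefficient of variation 16.2%), 0 of the 6 members were called, against 0.412% of genes. The member with an unadjusted p under 0.05 was Ywhaz (0.0476, adjusted p of 1 by edgeR).

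Splitting each gene by kind of read showed where these differences lay. TALON, the program that made the models, labels each one as an annotated transcript, an incomplete match to one, a new joining of known splice sites, a model with at least 1 unknown splice site, or genomic. Annotated transcripts held 77.0% of the family's reads in replicate 1 and 84.5% in replicate 2, against 70.4% and 72.6% over all annotated genes. Spliced models with new joins or new splice sites held 1.52% and 1.45%, against 6.16% and 6.59% over all genes. Unspliced reads outside the annotated transcripts held 17.6% and 10.6%, against 11.5% and 8.90%.

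The share of unspliced reads varied widely within the family. It was 2.95% and 2.60% in Ywhaq, 6.65% and 6.61% in Ywhae, 7.33% and 4.70% in Ywhah, and 10.2% and 5.72% in Ywhab. In Ywhaz it was 56.9% in replicate 1 (interval 53.8 to 60.1) and 28.9% in replicate 2 (25.4 to 32.5). In Ywhag it was 89.0% (85.1 to 92.1) and 89.2% (85.3 to 92.4), so its level rested on unspliced reads in both libraries alike. By Fisher's exact test on this share, added after the data were seen, Ywhaz (adjusted p = 4.04e-26), Ywhab (0.0209) and Ywhah (0.0478) had larger shares in replicate 1, 3 of 6 members against 1.45% of 7092 genes tested.

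**Figure D3:**
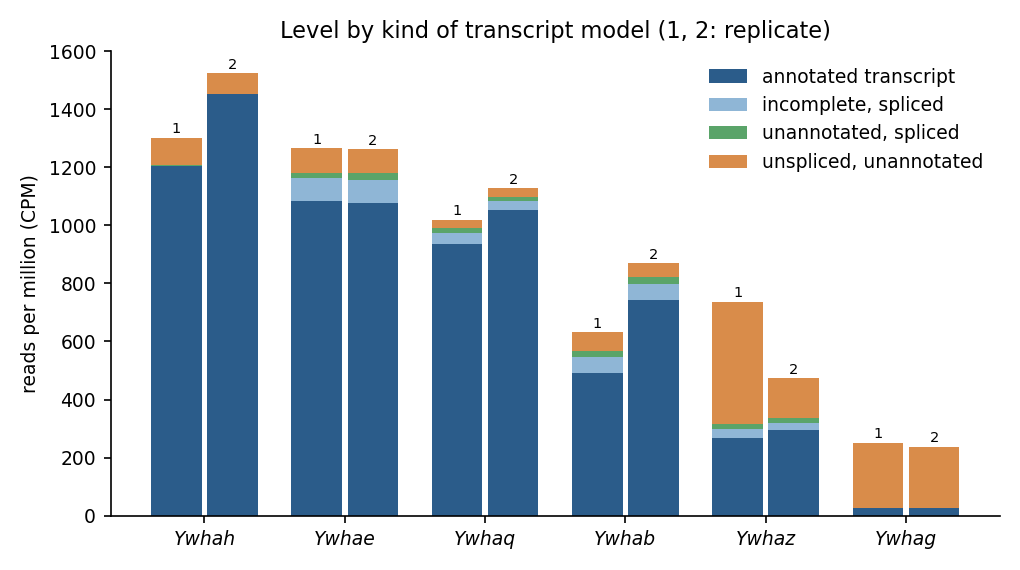
Level of each detected gene in CPM (linear axis from 0), as stacked bars by kind of transcript model, with 1 bar per library (1 and 2, the replicates). The unspliced part of Ywhaz is larger in replicate 1, its annotated part is nearly the same height in both, and Ywhag is mostly unspliced in both.

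Without single-exon models, the Ywhaz difference was gone: 422 spliced reads in replicate 1 and 461 in replicate 2 gave a log2 ratio of -0.09 (interval -0.28 to 0.10, adjusted p = 0.767). Its single-exon reads, 558 and 187, were 3.06-fold higher in replicate 1 (log2 ratio 1.62, interval 1.37 to 1.86, adjusted p = 2.11e-43), where 4.82% of 5080 genes were called in that direction. Ywhab and Ywhah were called on spliced reads too, where 5.2% of genes were. Ywhab had 756 and 1121 spliced reads (log2 ratio -0.53, adjusted p = 8.88e-13), and Ywhah 1605 and 1986 (-0.27, adjusted p = 2.71e-06). Their single-exon reads did not pass the test and had log2 ratios of the opposite sign, 0.38 for Ywhab and 0.41 for Ywhah. Ywhaq passed on annotated models alone, with 1247 and 1438 reads (-0.17, adjusted p = 0.0440), where 525 genes were called in all. It also passed without genomic and incomplete models (-0.16, adjusted p = 0.0483), where 6.61% of 9143 genes were called and the median log2 ratio was -0.13. On spliced reads of any class it had 1317 and 1501 (-0.15, adjusted p = 0.0891). With the spliced reads of annotated genes as the total, chosen after the data were seen, its log2 ratio was -0.055 (adjusted p = 0.760).

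**Figure D4:**
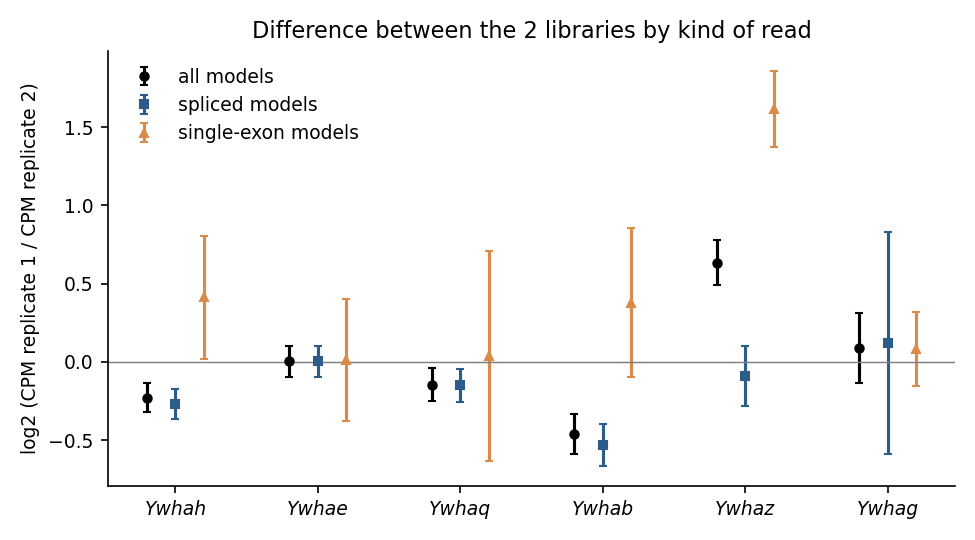
Log2 ratio of CPM in replicate 1 to replicate 2 for each detected gene on all models (black circles), spliced models (blue squares) and single-exon models (orange triangles), with 95% intervals from exact binomial limits. For Ywhaz the single-exon point lies at 1.62 and the spliced interval includes 0.

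The unspliced models lay at the 3′ ends of the genes. Of 2017 unspliced sense reads outside annotated transcripts, 2015 were on models overlapping a last exon of a protein-coding transcript, and 17 of the 20 models lay at least 90% within one. The deposited annotation gives 1 interval per model, not per read. In Ywhah the unspliced model was exactly the last exon, with 127 and 98 reads. It holds 651 coding bases, all of the coding sequence after the intron. In Ywhag the interval covered 2579 bases in replicate 1, starting 11 bases past the last coding base, and 713 bases ending at the same place in replicate 2, exactly the last exon of Ywhag-205. The 298 reads in replicate 1 were classed as genomic and the 289 in replicate 2 as an incomplete match, although their number was nearly equal. Ywhae showed the same exchange of class, 110 incomplete-match reads in replicate 1 and 114 genomic reads in replicate 2 over intervals of 918 and 921 bases. In Ywhab, 84 and 66 reads lay on a model that began with the last exon and ended 1491 and 1467 bases past the coding end. Ywhaq had its unspliced reads in a pair of intervals, 28 and 30 reads between 1027 and 1288 bases, beyond the end of Ywhaq-205, and 12 and 10 nearer the coding end.

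The Ywhaz model lay beyond the end of its most abundant annotated transcript. Ywhaz-204, with 316 and 352 reads, ends 1017 bases past the last coding base. Ywhaz-201, with 40 and 49, ends at 1951 bases. The unspliced model ran from 1017 to 2522 bases in replicate 1, past the annotated end of the gene, with 553 reads, and from 1017 to 1951 bases in replicate 2, with 183. An unspliced locus on the opposite strand had the same interval in each library, with 808 reads in replicate 1 and 246 in replicate 2. All opposite-strand reads at Ywhaz came to 616 and 181 CPM, 3.41-fold more in replicate 1. The strand setting of the libraries is not given in the sources used here, so reads of both strands cannot be told apart there.

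Opposite-strand loci over the other members were smaller. Ywhae had 51 and 63 such reads, mostly in 1 locus over its last exon that ended at the same base as the sense model in each library, 868 bases past the coding end in replicate 1 and 871 in replicate 2. Ywhab had 8 and 7, mostly in a locus ending at 1491 and 1467 bases as its sense model did. Ywhag had 11 and 3, Ywhah 1 and 2, Ywhaq 1 and 0, and Sfn 1 and 0. Annotated genes on the opposite strand added few reads, 4 and 3 for Gm4419 over Ywhaq and 1 and 1 for Gm26836 over Ywhae.

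**Figure D5:**
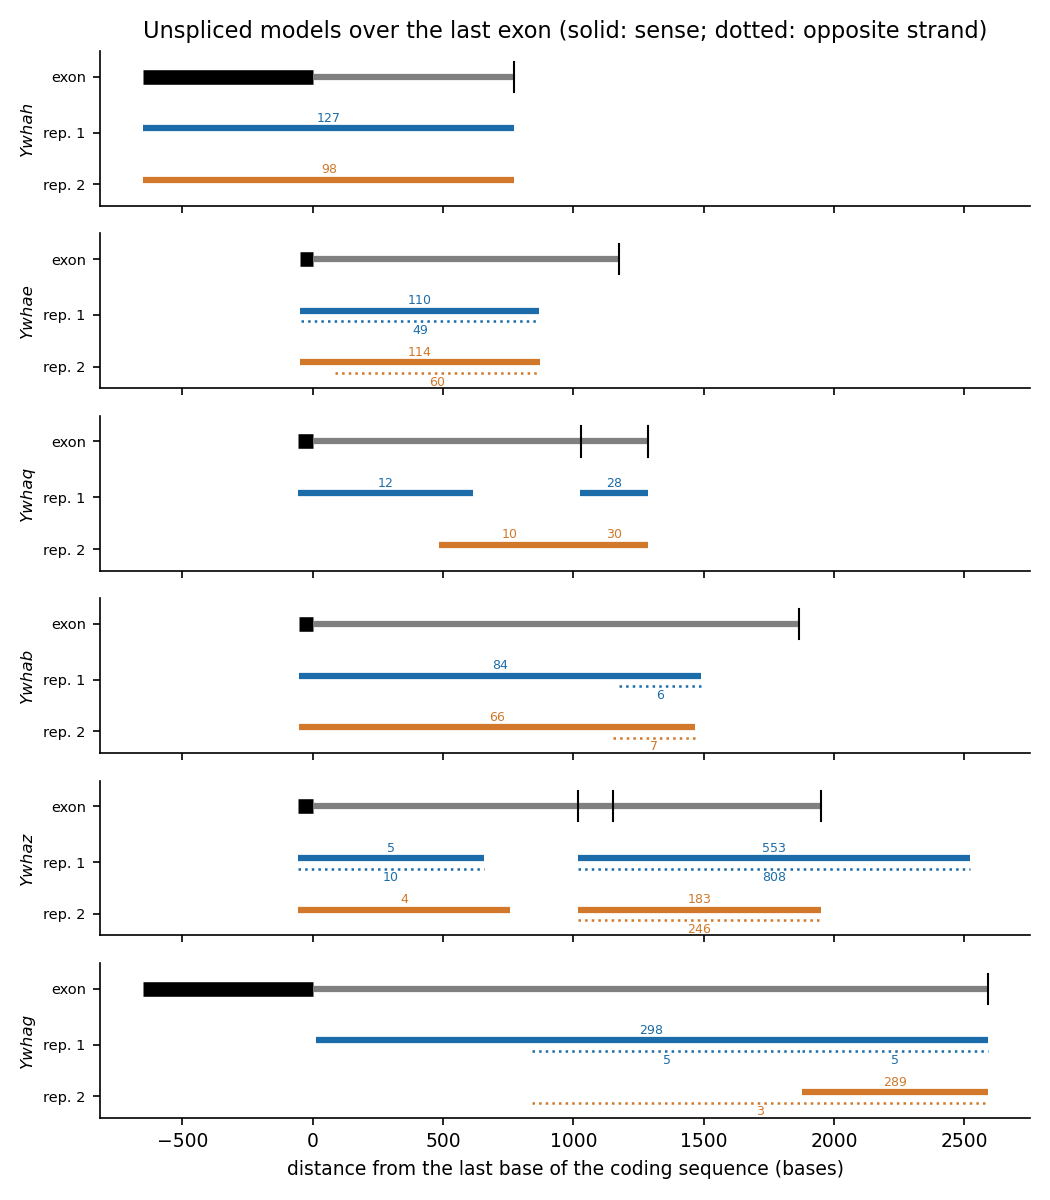
Unspliced models with more than 2 reads over the last exon of each detected gene, by distance in bases from the last coding base. Black blocks are coding bases of the last exon, grey lines the annotated 3′ part, ticks the ends of annotated transcripts with reads, solid lines sense models and dotted lines opposite-strand loci (blue, replicate 1; orange, replicate 2), with their reads. Both strands at Ywhaz share 1 interval in each library.

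The leading model of each gene was then compared. With the genomic class left out, the leading model's share of the gene's reads differed by Fisher's exact test in 4 of 6 members, Ywhab, Ywhae, Ywhag and Ywhah, against 3.21% of 6262 genes. For Ywhag this set 0 of 37 reads against 289 of 324, and for Ywhae 1440 of 1682 against 1469 of 1611, the 2 genes whose unspliced reads changed class label. With the genomic class kept, a setting chosen after the data were seen, Ywhae (85.5% and 85.2%) and Ywhag (89.0% and 89.2%) did not pass. The members then called were Ywhab, Ywhah and Ywhaz, against 1.76% of 7092 genes. With all unspliced models outside the annotation left out, also chosen after the data were seen, 0 of 6 members were called by Fisher's exact test, against 0.489% of genes, and 1 had an unadjusted p under 0.05. The leading spliced model then held 86.4% and 90.6% of Ywhab, 91.6% and 91.2% of Ywhae, 99.8% and 99.8% of Ywhah, 78.2% and 80.7% of Ywhaq and 74.9% and 76.4% of Ywhaz. The share of annotated transcripts differed by the same test in 2 of 6 members, against 1.28% of 7092 genes. It was 36.4% and 62.3% in Ywhaz (adjusted p = 1.46e-21) and 77.6% and 85.5% in Ywhab (adjusted p = 0.00104), and 0 of 6 members were called without single-exon models.

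Of 31 annotated transcripts of the 7 genes, 12 had reads. Ywhaq and Ywhaz were the members with a second annotated transcript above 1% of reads. Ywhaq-202, with a noncoding first exon of 134 bases, had 1030 and 1212 reads, or 77.3% ± 1.94 of the gene (SD, n = 2). Ywhaq-201, whose first exon is 639 bases and which ends 1030 rather than 1288 bases past the coding end, had 217 and 226 reads, or 15.3% ± 0.937 (SD, n = 2). Both have a coding length of 735 bases. The 3 annotated Ywhaz transcripts with reads, Ywhaz-204, Ywhaz-201 and Ywhaz-203 (1 and 3 reads), also share a coding length of 735 bases. Of Ywhag-201, the 2-exon protein-coding transcript, there were 34 reads in each library, 10.3% ± 0.244 of the gene (SD, n = 2).

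Reads that used a second first exon recurred at nearly equal numbers. In Ywhae, 17 reads in each library began in the first exon of Ywhae-202 (chromosome 11, 75733148 to 75733245) and continued through the remaining 5 exons of Ywhae-201. They lacked the exon with the annotated start codon, whose 64 coding bases are shown with that codon in capitals.

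Ywhae-201 exon 1, chr11:75733028-75733091, plus: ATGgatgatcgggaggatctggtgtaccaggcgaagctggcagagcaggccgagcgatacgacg

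The 98-base exon of Ywhae-202 holds 1 ATG triplet, which is not in the reading frame that Ywhae-201 uses in exon 2. The annotation nevertheless lists Ywhae-202 as protein-coding, with all 461 of its bases as coding sequence, this exon included. In Ywhab, 10 and 12 reads joined the first exon of Ywhab-202 to the rest of Ywhab-201. In Ywhaz, 20 and 17 reads followed Ywhaz-201 but used another annotated splice site, which makes noncoding exon 2 longer by 3 bases. The intron of that site (36793679 to 36794144) had 21 and 18 reads in all, against 41 and 49 for the intron that leaves the exon shorter.

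Incomplete spliced models were mostly those that matched the 3′ part of a transcript, 176 and 199 reads, against 80 and 59 that matched the 5′ part. The largest of the latter were the first 2 exons of Ywhae (31 and 24 reads) and the first 3 of Ywhab (22 and 20).

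Unannotated splice sites were rare in the family. Reads of unannotated introns made up 0.308% and 0.304% of all intron reads of the members. There were 65 such introns, of which 45 had 1 read and 16 were seen in both libraries. In 10 of the 65 the donor, the 5′ end of the intron, lay 4 bases past an annotated one, and 6 of the 10 had reads in both libraries. These 6 fell in Ywhab, Ywhae and Ywhaq. A donor 4 bases downstream lengthens the exon by a number of bases that is not a multiple of 3. Among the 6, the Ywhab intron 163995370 to 164011601 (6 and 3 reads) followed noncoding exon 1. So did the Ywhaq introns 21417132 to 21417499 and 21417129 to 21417499, which share a donor. In these the added bases fall outside the annotated coding sequence.

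A pair of these shifts lay at the same place in paralogs, after the 124-base coding exon. In Ywhab the shifted intron (164014134 to 164015230) had 3 and 6 reads beside 701 and 1070 on the annotated one, or 0.426% and 0.558%. In Ywhaq the shifted intron (21396446 to 21398236) had 5 and 9 reads beside 1281 and 1466, or 0.389% and 0.610%. In Ywhaz no read had it among 404 and 447, which allows up to 0.743% and 0.671% in the single libraries and 0.353% of the 851 reads of both. Over both libraries the share was 0.506% in Ywhab (exact interval 0.231 to 0.958) and 0.507% in Ywhaq (0.277 to 0.849), above that limit, with intervals that include it. The difference between the genes was not tested. The last 30 bases of this exon are printed for the 3 genes, with the final exon bases in capitals.

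Ywhab, chr2:164014100-164014129, plus: ctgaagttgcatccggagaaaataaacaAA
Ywhaq, chr12:21398241-21398270, minus: ctgaagtagcttgtggcgatgatcgaaaAC
Ywhaz, chr15:36776246-36776275, minus: ccgaggttgctgctggtgatgacaagaaAG

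The intron bases after these exons are not in the sequences used here. They were available at a pair of other shifted donors, shown with the first bases of the annotated and of the shifted intron in capitals.

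Ywhaq exon 1, chr12:21417484-21417513, minus: agactagaagGTgaGTgcggacacagctct
Ywhae exon 4, chr11:75757014-75757043, plus: gtgcctgcagGTaaGTagtggacaaaattt

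At both, a second GT stands 4 bases after the annotated GT. The shifted Ywhae intron had 2 and 1 reads, beside 1520 and 1567, and the shifted Ywhaq donor had 3 and 2 reads with the annotated acceptor and another 3 and 2 with an acceptor 3 bases later. Of 44 introns with an unannotated donor, the available sequences covered the donor bases of 23, and 21 of the 23 began with GT. Of 28 with an unannotated acceptor they covered 19, and 16 ended with AG. One of these was an acceptor 3 bases inside the same 124-base exon of Ywhab, with 2 and 6 reads beside 719 and 1085.

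Genes that work with the family were taken from a pair of lists, proteins bound or regulated by 14-3-3 and kinases that write its binding sites. Of 62 clients and partners, 59 had reads and 46 were tested at the gene level. In replicate 1, 3 were higher, in replicate 2, 2 were higher, and 41 did not pass, where 5.95% of all tested genes were called. The median log2 ratio was -0.15 against -0.05 over all tested genes. Syn2, a synaptic vesicle phosphoprotein, was at 283 and 472 CPM (log2 ratio -0.74, adjusted p = 2.67e-13), and Mapt, tau, at 223 and 289.8 CPM (-0.38, adjusted p = 0.0148). Araf, a RAF kinase, and Camkk1, a calmodulin-dependent kinase kinase, were also among the most abundant and did not pass.

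The 3 clients called higher in replicate 1 were Crtc1, a CREB coactivator held in the cytoplasm by 14-3-3 (115 and 58 reads, adjusted p = 3.12e-04), Cdkn1b, a cell cycle inhibitor (113 and 62, adjusted p = 0.00216), and Hdac4, a class IIa histone deacetylase (69 and 37, adjusted p = 0.0267). Single-exon models held 94.8%, 61.1% and 56.6% of their reads over both libraries. On spliced reads they had 5 and 4, 33 and 35, and 25 and 21. Without genomic and incomplete models, 0 of the 22 clients then tested were higher in replicate 1 and 4 were higher in replicate 2, where 6.61% of 9143 genes were called. The median log2 ratio was then -0.25 against -0.13 over all genes tested.

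Of the 34 kinases, all had reads and 28 were tested, with 1 higher in each library and 26 that did not pass (median log2 ratio -0.09), a share near the 5.95% of all tested genes. Without genomic and incomplete models 0 of 20 kinases were higher in replicate 1 and 2 in replicate 2, against 6.61% of genes. Camk2a (530 and 487 CPM), Camk2b (419 and 459.7), Pak1 (247 and 283) and Prkacb (186 and 198) were the most abundant and did not pass. Prkcz, an atypical protein kinase C, had 196 and 268 reads and was higher in replicate 2 (log2 ratio -0.41, adjusted p = 0.0440). Prkaca, a catalytic subunit of protein kinase A, had 84 and 42 reads and was higher in replicate 1 (1.04, adjusted p = 0.00376), with 80.2% of its reads on single-exon models and 13 and 12 spliced reads. By edgeR's exact test none of the 7 called genes of both lists passed, with adjusted p from 0.734 to 1. The part of single-exon reads in these calls was not tested.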

How the data were processed

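Long reads of RNA from tissue labelled layer of hippocampus were analysed in 2 libraries of 1 group. The deposited tables hold raw counts of reads per transcript model, with no normalization by the authors and no model without a read. Models were made with TALON on build mm10 with GENCODE M21, per the file headers and the description files deposited with the data. For the aligner, platform, filters and strand setting, nothing is given in the sources used here.

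A gene's count is the sum of its models, whatever their class, and CPM divides by the library's full read total. Fisher's exact tests were two-sided and Benjamini-Hochberg adjusted at 0.05, on genes with at least 10 reads in all (levels) or 20 reads in each library (shares). edgeR 4.0.16 and DESeq2 1.42.0 gave the alternative scalings, and SciPy 1.17.1 the tests, which were checked on simulated data. The simulated counts held counting error only, so the check does not cover spread between libraries. Coding sequences were built from GENCODE M21 transcripts and aligned by codon with mafft 7.526. The intron bases shown for Ywhaq come from the RefSeq promoter window on GRCm38.p6. Unannotated spliced models named have at least 2 reads in each library, and other models at least 1% and 10 of the gene's reads. From each list of related genes the 5 most abundant and those called are named, except 1 that is not reported here. No molecular identifiers are described, and intervals and floors (3 reads for a count of 0) cover counting error only. The members and lists were chosen with earlier results of these data known.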

Additional observations from a re-analysis of the deposited data

How the results depend on the processing

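Of 6 members, 3 were called at the gene level under library sizes by TMM or DESeq2 size factors, a total without choroid plexus markers, other read minimums, annotated models only, and no genomic or incomplete models, though the last 2 called Ywhaq in place of Ywhaz. Spliced reads alone called 2, with either total. Single-exon reads alone called 1, and edgeR's exact test 0. The settings with single-exon reads alone, spliced reads with their own total, the genomic class kept and unspliced models left out were chosen after seeing the data. The log2 ratio of Ywhaz changed sign to -0.12 without genomic and incomplete models, -0.14 on annotated models and -0.089 without single-exon models. Each of these had an interval that includes 0 and was not called. Over all genes tested the median was -0.13 without genomic and incomplete models and -0.11 without single-exon models. With spliced reads as their own total the log2 ratio of Ywhaz was 0.0060. On single-exon reads alone that of Ywhab reversed to 0.38, of Ywhah to 0.41 and of Ywhaq to 0.039. With DESeq2 size factors that of Ywhae, near 0, became -0.0023. The cause was not tested. The family's level of 5354 CPM was 4408 without genomic and incomplete models and 4329 on annotated models, and 5210 to 5498 with either library left out. Without genomic and incomplete models the mean of Ywhaz went from 606 to 300 CPM, of Ywhag from 244 to 26.7 and of Ywhae from 1264 to 1101. Those of Ywhab, Ywhah and Ywhaq stayed within 1 SD. The family's annotated share of 80.8% was 77.0% to 84.5% with either library left out. Members called for the leading model's share numbered 4, but 0 without genomic and incomplete models and 0 without unspliced models. With the genomic class kept they numbered 3, with Ywhaz called and Ywhae and Ywhag not. Members called for the annotated share numbered 2, but 4 without genomic models and 0 without single-exon models. Over all genes, 707 of 11891 were called for level (5.95%) and 49 by edgeR (0.412%). The number was 659 with TMM, 714 with DESeq2 size factors and 675 with the total without choroid plexus markers. With no minimum on reads it was 602, and with at least 20 reads 702. It was 604 of 9143 (6.61%) without genomic and incomplete models, 525 on annotated models and 525 of 10090 (5.2%) without single-exon models. On single-exon reads it was 286 of 5080, and on spliced reads with their own total 401. For the leading model's share, where 3.21% of 6262 genes were called, the number was 13 without genomic and incomplete models, 30 without unspliced models and 125 with the genomic class kept, and for the annotated share it was 91 in the first place, 152 without genomic models and 27 without single-exon models. Pseudogenes sharing words numbered 13, and 9 with 50-base words. No paired analysis was possible because there is 1 group. The 34 and 34 reads of Ywhag-201 limit what can be said of its spliced forms.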
